A study of Arabidopsis thaliana with 11 samples.

Results

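Flowers were compared with rosette leaves of Arabidopsis thaliana Columbia-0 (Col-0), the standard laboratory accession of this small flowering plant, by hybridising their RNA to Affymetrix ATH1 arrays. The comparison holds all 4 flower arrays and all 3 leaf arrays of the series, 7 of its 11 samples, chosen by the tissue named in the labels. The remaining 4 arrays, of the upper stem, entered the model for a shared estimate of the spread, and their values are given where they help to place a gene. Leaves were taken at 15 days, and the flowers, with their buds, at 29 days, as was the stem. All plants carried no mutation or transgene in the labels and had 16 h of light at 125 umol per square metre and second, at 25 C by day and 20 C by night. Tissue and plant age therefore changed together, and their shares in any difference cannot be told apart. Titles carried the code GC or GH, and leaf had 1 GC array and 2 GH arrays, flower 2 GC arrays and 2 GH arrays. The sample descriptions named a greenhouse only for the leaf GH arrays and a controlled growth system for all others, which leaves the meaning of the code unsettled. As described, growth place thus differed between the 2 leaf GH arrays and all flower arrays. Its share in a difference cannot be fully told apart from that of tissue. The code as a covariate does not remove it, since the flower GH arrays were described with the controlled system. Whether replicates came from separate plants is not stated, so the p-values take in only the spread among these arrays, part or all of which could be technical.

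A rosette leaf is a source organ: its mesophyll cells hold the photosynthetic apparatus, and its sucrose is loaded into the phloem for export. A flower is mostly a sink, built of sepals, petals, stamens and carpels, and it imports sugar for pollen, ovules and nectar. In the anther, the tapetum, a short-lived cell layer, feeds the developing pollen and supplies its wall, while the carpels enclose the ovules in which the female gametophytes form.

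Values are microarray signals on a linear scale, and a signal is relative brightness of 1 probe set, so levels are compared between arrays and not between genes. A signal under 28.1, the 40th percentile of all values, is called dim. Where every array of a tissue was dim, only a smallest fold, against that limit, is stated as "at least". Signals of single arrays are listed in the order GC 1, GC 2, GH 1 and GH 2 for flower, and GC 1, GH 1 and GH 2 for leaf. Differences are log2 of flower over leaf from a limma model over all 11 arrays, with their standard error (SE), and p-values were adjusted over the 15718 probe sets that were bright enough to test. Summed over a whole organ, fewer cells of a type and less RNA per cell cannot be told apart. Precision is limited by how few arrays there are.

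The share of bright probe sets was 57.6% to 58.4% in leaf and 62.5% to 64.6% in flower. RNA quality also moved with the tissue: the mean log2 ratio of 3' to 5' signal of the control genes was -0.24 to 0.09 in leaf and 0.53 to 0.90 in flower, and for 5S ribosomal RNA the signal ranged from 1.73 to 6.47 in leaf and from 78.1 to 139 in flower. Its part in the differences below was not tested beyond a fit with the ratio as a covariate, which is given with the other alternatives in the closing section.

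Of the 15718 probe sets, 5617 (35.7%) differed at an adjusted p under 0.05, 3354 higher in flower (21.3%) and 2263 lower (14.4%). Flower and leaf arrays did not overlap for 7200 probe sets (45.8%), whether or not they passed the test. The median log2 difference over all probe sets was 0.16 on the deposited scale. It was -0.00 once the arrays were quantile normalized and 0.03 once each was centred on its 75th percentile. Those scalings gave 2781 higher and 2677 lower, and 2650 higher and 2699 lower, so the excess of higher calls depends on the scaling and small differences near 0.16 have no settled direction. Differences of 8-fold or more were unequal in number, with 523 probe sets higher and 137 lower in flower. These folds take dim signals as they stand. Called differences of 2-fold or more numbered 2068 higher and 1409 lower on the deposited signals. With signals floored at the dim limit they numbered 1554 and 1329, so the inequality depends in part on dim signals. Of all 3354 higher probe sets 899 were dim on all 3 leaf arrays. Of all 2263 lower probe sets 174 were dim on all 4 flower arrays. These counts were not taken under equal conditions. To be tested, a probe set needed 3 or more arrays above the limit. Without bright stem arrays, that took 3 of the 4 flower arrays but all 3 leaf arrays. Dimness also had to hold on 4 flower arrays but on only 3 leaf arrays. Both conditions favour the larger count, and their share in the contrast was not tested. The annotation ties 8583 of the probe sets to a single gene, and the text names only these. Gene groups are described by counts, to be read beside the 21.3% higher and 14.4% lower over all probe sets. Counts near these shares are no result about a group. The groups described or drawn below with 0 members called by limma in one direction also had 0 there at an unadjusted p under 0.05, with 6 exceptions. The glucosinolate and RNA polymerase genes had 1 higher each, the guard cell and vesicle traffic genes 1 lower each, and the bHLH (basic helix-loop-helix) and organelle RNA editing genes 2 lower each.

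**Figure D1:**
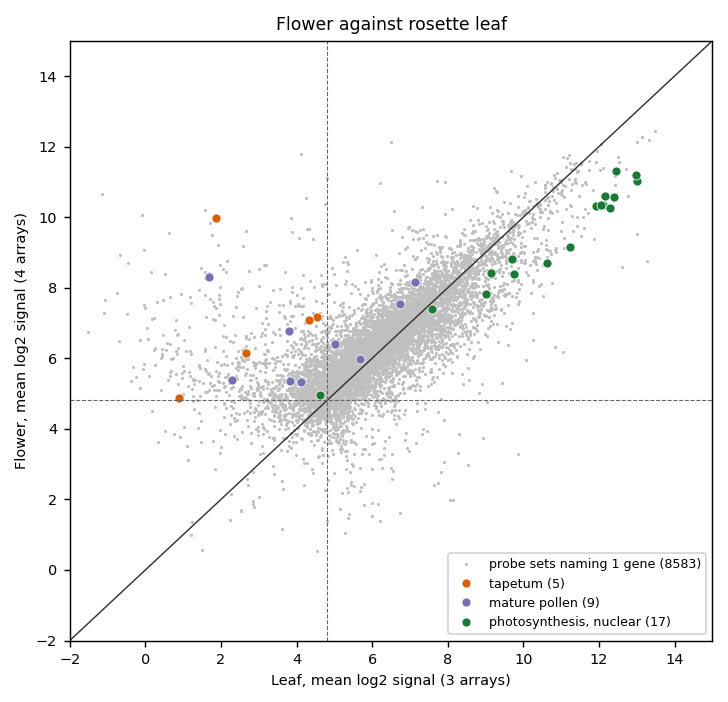
Mean log2 signal of each probe set naming 1 gene in leaf (x axis, 3 arrays) against flower (y axis, 4 arrays). Grey points are all 8583 probe sets, coloured points are members of 3 gene groups, the dashed lines mark the dim limit and the solid line equal signal. The tapetum genes lie above the line with leaf means under the limit, the pollen genes lie above the line on both sides of it, and the nuclear photosynthesis genes other than ATPC2 lie below the line.

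Markers of the labelled tissues were looked at as a description, and their lists differed. Of 14 tested nuclear photosynthesis genes 11 were lower in flower, whereas of 2 tested guard cell genes limma called 0, and the floral organ, trichome and plastid-encoded lists had members called in both directions. Of the 6 tapetum and pollen wall genes on named probe sets, 5 were bright enough to test, and all 5 were higher in flower and dim on every leaf and every stem array. A gene that is dim in leaf and stem reaches the test only through bright flower arrays, so such counts describe these genes and are no support for a direction. ATA27, an anther gene of the beta-glucosidase family, had signals of 937, 955, 1078 and 1082 in flower and 1.72, 5.01 and 5.53 in leaf, at least 36.0-fold higher in flower (adjusted p = 5.9e-07). EMS1, the receptor kinase that specifies tapetal cells, had signals of 144, 159, 140.4 and 108 in flower and 19.1, 27.8 and 15.1 in leaf, at least 4.86-fold higher in flower (adjusted p = 0.00100). SHT, a spermidine hydroxycinnamoyl transferase that makes polyamine conjugates of the pollen coat, read 69.8, 55.8, 96.7 and 67.6 in flower and 7.57, 10.0 and 3.28 in leaf, at least 2.53-fold higher (adjusted p = 0.0142). Every flower array exceeded every leaf array for these 3 genes. AMS, a basic helix-loop-helix (bHLH) regulator of the tapetum, was close to the limit even in flower, at 33.1, 17.6, 33.6 and 38.0, against 2.21, 0.482 and 6.00 in leaf (adjusted p = 0.00985). On flower GC 2 it was dim, so its bound is only 1.05-fold, and with signals floored at the limit its call ended (0.25).

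Of 16 genes of mature pollen and the pollen tube on named probe sets 9 could be tested, and 8 were higher in flower, 5 of them dim on every leaf array. PLIM2a, a LIM-domain protein that bundles actin in pollen, had 324, 363, 342 and 251 in flower and 2.83, 3.87 and 3.03 in leaf, at least 11.3-fold higher (adjusted p = 1.0e-06). ANX2, an ANXUR receptor kinase that keeps the growing pollen tube intact, had 40.1, 48.0, 39.7 and 38.6 in flower and 9.01, 9.24 and 1.44 in leaf, at least 1.47-fold. AGL66, a MADS-box factor of late pollen development, had 35.6, 45.5, 45.6 and 37.9 against 16.3, 22.9 and 7.83, at least 1.46-fold. The leaf arrays of all 3 genes were dim throughout. AGL65, which pairs with AGL66 in pollen, was the member that did not pass (0.30 ± 0.22), and its groups overlapped, with 64.8, 69.6, 48.7 and 74.5 in flower and 55.4, 53.4 and 45.9 in leaf. The proton-coupled cation exchanger CHX19 was at least 1.43-fold higher. Its relative CHX15, from the list of ion transporters, was at least 1.13-fold higher, and both were dim on every leaf array. The adjusted p of these 4 higher genes was 0.00542 to 0.0302. The calls of ANX2 and CHX19 ended after quantile normalization (2.71 and 0.84) and with the 3' to 5' ratio as a covariate (2.98 and 1.04), that of AGL66 with the ratio covariate (1.18) and that of CHX15 with signals floored at the dim limit (0.19). With the ratio covariate 5 of the 9 pollen genes were higher.

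Further pollen genes came from a list drawn up after the annotation had been read, with 19 genes on named probe sets and 10 tested, of which 4 were higher and 6 not called. AT59, a pectate lyase-like protein of pollen, had signals of 99.5, 161, 107 and 59.4 in flower and 4.23, 1.17 and 1.16 in leaf, at least 3.57-fold higher. All 4 flower arrays were bright and all 3 leaf arrays near the bottom of the scale. The multicopper oxidase-like sks18 was at least 2.08-fold higher. NET2D, an actin-binding protein of the pollen tube, was at least 2.38-fold higher (adjusted p of these 3 genes 7.9e-05 to 0.00154). In stem NET2D had 117 ± 5.12 (SD, n = 4). The SETH genes, needed for pollen germination and tube growth, did not pass: SETH2 differed by 0.43 ± 0.34, SETH3 by -0.22 ± 0.20 and SETH5 by -0.03 ± 0.34, with overlapping arrays for each.

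Secreted peptides of the RALF-like family are read by receptor kinases such as FERONIA and the ANXUR proteins. Of 11 family genes on named probe sets 8 were tested, and 5 were higher in flower and 3 not called. RALFL25 had 245, 404, 218 and 232 in flower and 11.0, 3.84 and 12.6 in leaf, at least 9.47-fold (adjusted p = 5.2e-06). RALFL26 had 175, 243, 239 and 138 against 10.5, 13.3 and 6.99, at least 6.89-fold (adjusted p = 2.7e-05). Both were dim on all leaf arrays and bright on all flower arrays. RALFL33 (0.08 ± 0.34) and RALFL34 (-0.09 ± 0.14) did not pass. The receptor gene FER had 435 ± 50.2 (SD, n = 4) in flower and 562 ± 56.5 (SD, n = 3) in leaf, a log2 difference of -0.39 ± 0.20 that did not pass (adjusted p = 0.156), although its arrays do not overlap.

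On the female side, 12 of 15 genes of carpel, ovule and fruit regulation were tested, of which 6 were higher in flower and 6 not called. VDD (VERDANDI), a B3-domain factor needed for the identity of cells in the female gametophyte, had signals of 67.5, 54.6, 56.8 and 49.9 in flower and 0.634, 1.60 and 0.912 in leaf, at least 2.02-fold higher (adjusted p = 0.00102). CES (CESTA), a bHLH factor that acts in the reproductive tract, had 137, 115, 146 and 157 against 5.79, 1.78 and 4.00, at least 4.90-fold (adjusted p = 1.3e-04). All leaf values of both genes lay far under the limit. INO (INNER NO OUTER), the YABBY factor of the outer integument, had 65.0, 64.1, 51.0 and 65.3 in flower and 31.7, 15.7 and 24.4 in leaf (1.34 ± 0.27, adjusted p = 0.00254). NGA1, a regulator of the style, had 59.7, 60.8, 71.1 and 71.1 in flower and 56.9, 19.2 and 1.30 in leaf (adjusted p = 0.0679). Its groups did not overlap, but leaf GC 1 lay just under the flower arrays and the test was not passed.

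Genes of the female gametophyte and early seed formed another list, drawn up with the annotation in view, with 13 genes on named probe sets and 7 tested: 3 were higher, VDD among them, and 4 not called. DD46, named for loss of its transcript in ovules without female gametophytes, had 80.0, 61.0, 76.7 and 107 in flower and 2.87, 13.1 and 1.23 in leaf, at least 2.83-fold (adjusted p = 4.8e-04). AGL61 (DIANA), a MADS-box factor of the central cell, rose by less, 0.82 ± 0.21 on the log2 scale (adjusted p = 0.00936), a call that ended after quantile normalization (0.52). Its partner AGL80 had 57.5, 31.5, 47.6 and 61.5 in flower and 18.5, 18.3 and 27.1 in leaf and did not pass (adjusted p = 0.203). The flower and leaf arrays of AGL80 do not overlap, and its stem arrays, which share in the estimate of the spread, ran from 5.99 to 67.9. A gene that is uneven in stem can in this way have a wide error where its flower and leaf arrays are close together.

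**Figure D2:**
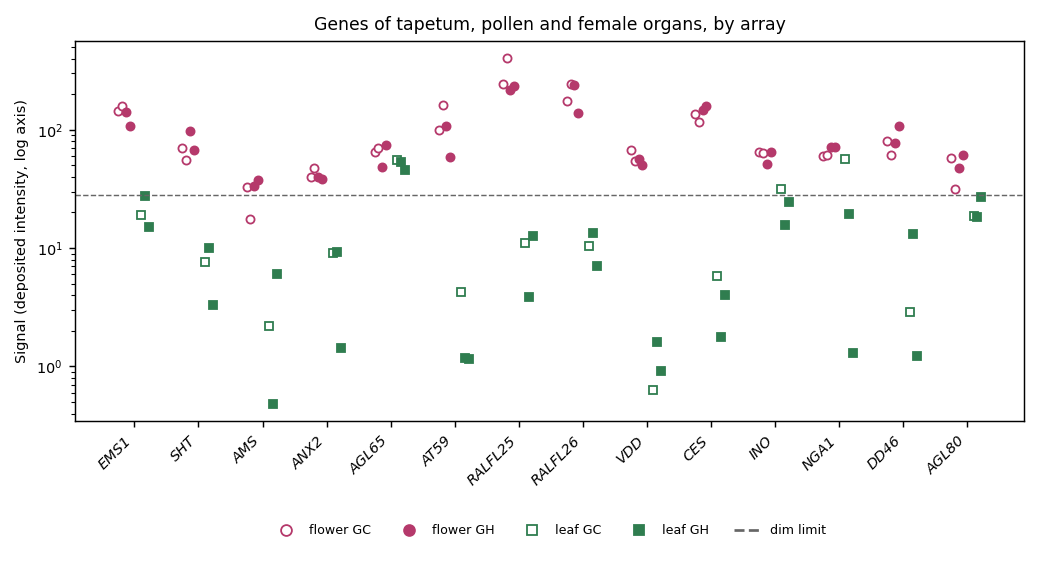
Signal of each flower array (circles, 4) and leaf array (squares, 3) for 14 genes of the tapetum, pollen and female organs, on a log axis; open symbols are GC arrays and filled symbols GH arrays, and the dashed line is the dim limit of 28.1. The differences of AGL65, NGA1 and AGL80 did not pass the test, and the leaf arrays of all genes but AGL65, INO and NGA1 lie under the limit.

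Of 5 tested regulators of floral organ identity and the floral meristem 2 were higher, 1 lower and 2 not called. From the bHLH list, BPEp (BIGPETAL), a factor that limits petal size, had 124, 108, 88.1 and 89.1 in flower and 0.886, 3.59 and 0.843 in leaf, at least 3.61-fold higher (adjusted p = 1.4e-04). ULT1, which restricts the size of the floral meristem, had 54.2, 75.3, 113 and 165 against 26.9, 32.5 and 34.1 (1.72 ± 0.25, adjusted p = 2.7e-04). AGL24, a MADS-box activator of flowering, was lower, at 21.2, 26.1, 28.5 and 19.7 in flower and 45.9, 43.1 and 38.1 in leaf (-0.82 ± 0.25, adjusted p = 0.0251). The groups did not overlap for any of these genes, but the call of AGL24 ended with the ratio covariate (-0.74). Most of the 40 MADS-box genes on named probe sets did not reach the test. Of the 10 that did, 4 were higher, 3 lower and 3 not called, and among the higher ones AGL18 and AGL42, dim on all leaf arrays, were at least 3.00-fold and 2.49-fold higher. Quantile normalization ended the call of AGL18 (1.47) and left 2 MADS-box genes higher, and the ratio covariate left 1 lower.

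Of 4 tested genes of cutin, wax and surface lipids 2 were higher, 1 lower and 1 not called. SHN3 (SHINE3), an AP2-domain activator of cutin synthesis in floral organs, had 78.3, 90.5, 69.6 and 61.8 in flower and 2.66, 11.9 and 2.21 in leaf, at least 2.64-fold higher (adjusted p = 5.2e-05). WSD1, a wax ester synthase, had 288 ± 47.1 (SD, n = 4) in flower and 64.8 ± 38.0 (SD, n = 3) in leaf (2.43 ± 0.33, adjusted p = 1.5e-04). The cytochrome P450 LCR (LACERATA) of cutin synthesis was lower (-0.59 ± 0.19), and FDH (FIDDLEHEAD) did not pass (0.16 ± 0.30).

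The serine carboxypeptidase-like (scpl) family, hydrolases and acyltransferases of the vacuole and apoplast, had 29 genes on named probe sets and 20 tested, of which 14 were higher, 2 lower and 4 not called. The gene scpl47 had 87.7, 123, 94.3 and 153 in flower and 4.08, 1.22 and 1.01 in leaf, at least 3.97-fold higher (adjusted p = 2.7e-06). The signals of scpl38 were 72.9, 101, 74.7 and 60.7 against 1.74, 0.884 and 1.97, at least 2.70-fold (adjusted p = 2.3e-04). Both were dim in leaf, and in stem scpl47 reached 34.6 ± 8.37 (SD, n = 4) while scpl38 stayed at 2.29 ± 1.19 (SD, n = 4). The opposite pattern was seen for scpl46, with 5.23, 2.58, 19.9 and 4.69 in flower and 67.4, 111 and 103 in leaf, at least 3.26-fold lower (adjusted p = 0.00192). All flower and stem arrays of scpl46 were dim and all leaf arrays bright.

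Sugar carriers separated the organs in both directions. All 19 sugar transporter genes on named probe sets were tested, and 10 were higher in flower, 6 lower and 3 not called. SWEET proteins let sugars pass down their gradient. SWEET9, the sucrose efflux carrier of nectaries, had signals of 311, 293, 240.0 and 255 in flower and 35.9, 26.4 and 17.9 in leaf (3.34 ± 0.23, adjusted p = 1.0e-06). SWEET10 had 189.9, 175, 159 and 164 against 3.77, 28.8 and 4.08 (4.66 ± 0.78, adjusted p = 6.7e-04). The lowest flower array of each was several times its highest leaf array. SWEET14 had 109.5, 116, 102 and 104 in flower and 25.1, 10.5 and 4.24 in leaf, at least 3.83-fold higher (adjusted p = 0.00389). SWEET4 had 399, 426, 339 and 282 against 43.1, 30.4 and 49.8 (3.08 ± 0.61, adjusted p = 0.00198). SWEET8, which is needed for the pollen wall, was at least 5.08-fold higher and dim on all leaf arrays.

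The leaf-high carriers included SWEET11, which releases sucrose for loading into the leaf phloem. Its signals were 213, 229.6, 119 and 193 in flower and 928, 689 and 726 in leaf (-2.11 ± 0.23, adjusted p = 2.7e-05). In stem SWEET11 had 161 ± 30.0 and SWEET9 27.2 ± 7.01 (SD, n = 4 each). SWEET2, a vacuolar carrier, had 36.2, 58.9, 40.2 and 44.0 in flower against 132, 243 and 231 in leaf (-2.19 ± 0.40, adjusted p = 0.00123). The vacuolar SWEET16 and SWEET17 fell by less (-1.05 ± 0.34 and -0.78 ± 0.23). Both calls ended with the ratio covariate (-1.12 and -0.68), that of SWEET17 also after quantile normalization (-0.64) and that of SWEET16 with flower and leaf arrays only (-1.02). The tonoplast monosaccharide transporter TMT1 was lower (-0.88 ± 0.16), while TMT2 (-0.34 ± 0.21) and TMT3 (0.38 ± 0.34) did not pass. SFP1, a facilitator of the ERD6-like family, had 42.8, 56.5, 52.7 and 40.7 in flower and 286, 209 and 213 in leaf (-2.34 ± 0.22, adjusted p = 1.1e-05).

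**Figure D3:**
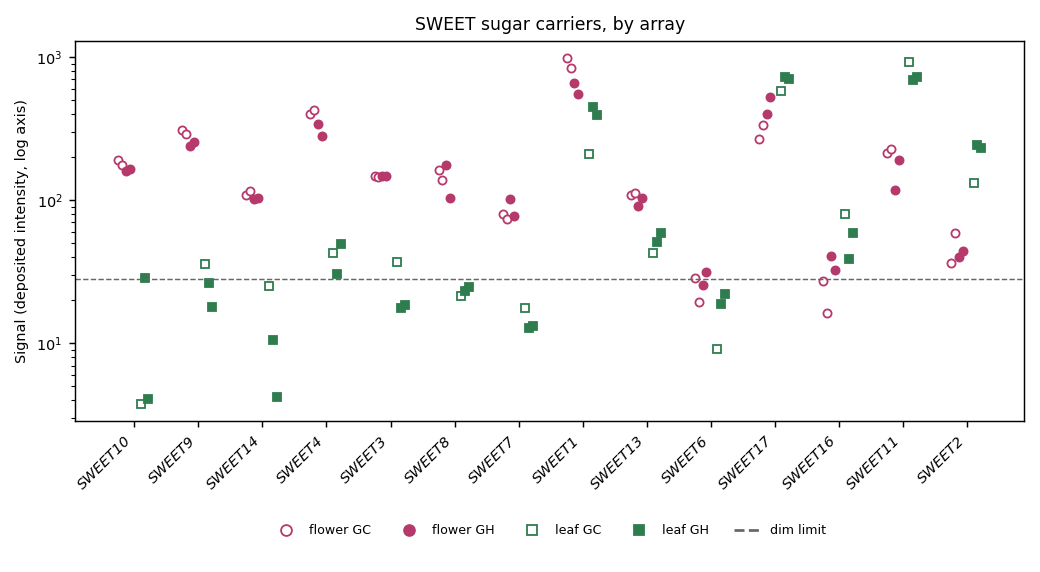
Signal of each flower array (circles, 4) and leaf array (squares, 3) for the tested SWEET genes, ordered by the log2 difference from the highest to the lowest, on a log axis; open symbols are GC arrays and filled symbols GH arrays, and the dashed line is the dim limit. SWEET10, SWEET9, SWEET14, SWEET4, SWEET3, SWEET8, SWEET7, SWEET1 and SWEET13 have every flower array above every leaf array, SWEET17, SWEET11 and SWEET2 the reverse, and SWEET6 and SWEET16 overlap.

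Antimicrobial peptide genes differed in opposite directions within a family. Among 18 tested genes of salicylate signalling, defence and defensins, of 27 on named probe sets, 5 were higher, 5 lower and 8 not called. Over all probe sets 21.3% were higher and 14.4% lower. THI2.1, a thionin, had 2194, 2161, 2338 and 2166 in flower and 24.7, 30.4 and 28.6 in leaf (6.31 ± 0.28, adjusted p = 6.6e-08). Its relative THI2.2 had 5.01, 9.66, 9.28 and 4.77 in flower and 233, 229 and 216 in leaf, at least 8.03-fold lower in flower (adjusted p = 9.5e-06). The defensin PDF1.2, a target of jasmonate and ethylene signalling, had 7.76, 4.25, 3.47 and 2.06 against 285, 269 and 298, at least 10.1-fold lower (adjusted p = 6.8e-06). Within each organ the bright arrays of these 3 genes were close to each other, and no groups overlapped.

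The cysteine-rich peptide LCR66 had 138, 111, 224 and 59.2 in flower and was dim in leaf, at least 4.25-fold higher. LCR72 had 215, 318, 208 and 153 in flower and was dim in leaf, at least 7.69-fold higher. LCR69 was bright in both organs, at 2288 ± 283 (SD, n = 4) in flower and 1033 ± 435 (SD, n = 3) in leaf (1.26 ± 0.40, adjusted p = 0.0268), and its call ended with the ratio covariate (0.70), with which 3 genes of the defence list were higher. The immune kinase BIK1 was lower (-0.67 ± 0.19). The defence regulators WRKY53 (-0.71 ± 0.47) and WRKY6 (0.49 ± 0.30) did not pass.

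Of 11 tested genes of the cell cycle, replication and cytokinesis 7 were higher and 4 not called, with a median of 0.97. TOPII, DNA topoisomerase II, had 111, 124, 135 and 113 in flower and 45.6, 31.3 and 44.2 in leaf (1.55 ± 0.24, adjusted p = 4.3e-04). The mitotic Aurora kinase AUR1 had 154, 139.8, 164 and 162 against 51.7, 65.0 and 56.9 (1.45 ± 0.17, adjusted p = 4.6e-05). The groups were well apart for both genes. AUR2 was also higher (1.26 ± 0.37), as was SIM (SIAMESE), an inhibitor of cyclin-dependent kinases (1.25 ± 0.28). The call of AUR2 ended after quantile normalization (0.97) and with the ratio covariate (1.00), and under either setting 4 genes of the cell cycle list were higher. AUR3 (0.65 ± 0.27) and the checkpoint proteins BUB3.1 (0.62 ± 0.32) and BUB3.2 (-0.42 ± 0.66) did not pass.

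Histone genes were listed with the annotation in view, and 5 of 7 tested were higher. The histone H2B gene HTB2 had 379, 366, 407 and 465 in flower and 169.5, 94.6 and 93.0 in leaf (1.84 ± 0.26, adjusted p = 2.0e-04). HTB1, HTB4 and HTB11 rose by less, from 0.78 to 0.98 on the log2 scale, and the call of HTB11 ended with the ratio covariate (0.36) and after centring on the 75th percentile (0.65). The centromeric histone HTR12 did not pass (0.64 ± 0.40, adjusted p = 0.235). Near-identical histone copies can share probe signal, so these values are uncertain for a single copy.

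Of 12 tested expansins, which loosen the cell wall, 3 were higher, 1 lower and 8 not called, near the shares of all probe sets (21.3% higher, 14.4% lower). After quantile normalization 2 were lower. EXLA2 had 65.2, 255, 421 and 213 in flower and 20.4, 10.8 and 13.0 in leaf, at least 6.99-fold higher (adjusted p = 1.6e-04). Its flower GC 1 array was well below the other flower arrays. The same array was low for EXO (EXORDIUM), a brassinosteroid-responsive gene of cell expansion, with 156, 1381, 1949 and 969 in flower and 129, 71.1 and 86.1 in leaf (3.12 ± 0.71, adjusted p = 0.00501). EXLA1 was higher (2.37 ± 0.39) and EXLB1 lower (-1.61 ± 0.29). Among 9 tested GH9 endoglucanases 7 were higher and 2 not called, with GH9B13 at 797 ± 95.4 (SD, n = 4) in flower and 136 ± 32.0 (SD, n = 3) in leaf (2.62 ± 0.26, adjusted p = 1.5e-05). Of the xyloglucan endotransglucosylases, which cut and rejoin xyloglucan, 3 of 8 tested were higher and 1 lower, XTH16 being higher (2.85 ± 0.44) and XTH32 lower (-1.05 ± 0.36). The XTH32 arrays overlap through leaf GC 1, and its call ended after quantile normalization (-0.95) and with the ratio covariate (-0.35). Quantile normalization left 4 GH9 genes higher.

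Of 4 tested pectin-modifying enzymes 3 were lower in flower and 1 not called. PMEPCRF, of the pectin methylesterase family, had 37.6, 61.1, 78.4 and 78.7 in flower and 215, 251 and 223 in leaf (-1.86 ± 0.21, adjusted p = 4.2e-05). PMEAMT had 222, 255, 413 and 349.6 against 762, 1018 and 1045 (-1.52 ± 0.21, adjusted p = 1.5e-04). No flower array reached the leaf arrays for either. IRX15, a xylan gene of secondary walls, was dim in both organs, at 2.67 ± 0.835 (SD, n = 4) in flower and 2.38 ± 0.328 (SD, n = 3) in leaf, against 269 ± 98.5 (SD, n = 4) in stem. HCT, an acyltransferase of lignin synthesis, was lower in flower (-1.58 ± 0.16). Of the 5 tested genes listed for xylem and secondary walls 1 was lower and 4 not called, with a median of -0.04.

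The cytoskeleton list held 23 tested genes of actin, tubulin and their regulators, of which 12 were higher and 11 not called, with a median of 0.69. Its largest difference was that of PLIM2a, given above. NET1A, an actin-binding protein, rose by 1.49 ± 0.24 on the log2 scale, and the LIM protein WLIM2a by 1.41 ± 0.22. The tubulins TUB5 (-0.17 ± 0.22), TUB6 (0.11 ± 0.17) and TUA6 (0.30 ± 0.13) did not pass. IQD proteins bind calmodulin and microtubules. In this family iqd33 was dim in leaf and at least 2.33-fold higher in flower, iqd32 was higher (1.21 ± 0.25), and iqd21 (-1.18 ± 0.20) and IQD24 (-1.15 ± 0.28) were lower.

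All 12 genes of branched-chain amino acid and lysine breakdown, listed with the annotation in view, were tested, and 8 were higher and 4 not called, with a median of 0.82. AT4G33150, the bifunctional LKR/SDH enzyme that starts lysine breakdown, had 389, 292, 388 and 466 in flower and 32.6, 24.0 and 37.0 in leaf (3.66 ± 0.23, adjusted p = 5.9e-07). MCCA, a subunit of the methylcrotonyl-CoA carboxylase of leucine breakdown, had 85.5, 159, 90.7 and 198 in flower and 63.0, 34.8 and 26.6 in leaf (1.66 ± 0.41, adjusted p = 0.00817). IVD, the dehydrogenase of the preceding step, had 80.6, 59.6, 81.8 and 73.3 against 48.6, 24.9 and 29.3 (1.14 ± 0.25, adjusted p = 0.00398). In MCCA and IVD, leaf GC 1 was the highest leaf array and still below every flower array. ALDH7B4, an aldehyde dehydrogenase of lysine breakdown, rose by 1.84 ± 0.13. The electron acceptors of IVD did not pass: ETFALPHA differed by 0.19 ± 0.22, ETFBETA by -0.07 ± 0.21 and ETFQO by -0.48 ± 0.26.

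Among 10 tested autophagy genes 5 were higher and 5 not called. ATG8B, a ubiquitin-like protein of the autophagosome membrane, had 195, 285, 254 and 219.9 in flower and 67.0, 74.5 and 70.0 in leaf (1.77 ± 0.19, adjusted p = 2.3e-05). Its relatives ATG8F (-0.34 ± 0.25) and ATG8D (0.24 ± 0.18) and the conjugating enzyme ATG3 (0.25 ± 0.16) did not pass. Of 6 cold and drought genes 5 were higher and 1 not called. COR27, a repressor in the cold and clock pathways, had 179.6, 260.3, 97.3 and 244 in flower and 50.2, 2.88 and 13.6 in leaf (3.72 ± 0.66, adjusted p = 9.7e-04). COR15A, which protects chloroplast membranes, had 821, 742, 900.2 and 841 against 70.6, 140.3 and 190.1 (2.82 ± 0.33, adjusted p = 5.1e-05). The leaf arrays of both genes were uneven and stayed below all flower arrays. Leaf GH 1 and GH 2 were dim for COR27, so the size of its difference rests in part on dim signals. The dehydrin LTI30 did not pass (0.75 ± 0.29, adjusted p = 0.0608).

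Of 14 tested light-harvesting and photosystem genes 11 were lower and 3 not called, with a median of -1.46 against 0.16 over all probe sets. PSBY, a small subunit of photosystem II, had 1472, 1601, 1158 and 849 in flower and 4774, 5134 and 5254 in leaf (-2.08 ± 0.17, adjusted p = 3.7e-06). In stem, taken at the same age as flower, it had 2598 ± 271 (SD, n = 4). PSAE-1, which docks ferredoxin at photosystem I, had 1696, 1736, 1402 and 1314 in flower against 6043, 4947 and 5168 in leaf (-1.85 ± 0.13, adjusted p = 1.3e-06). Flower and leaf arrays were well apart for both. LHCB4.1, a minor antenna protein, was lower (-1.82 ± 0.21), whereas its relative LHCB4.3 overlapped between the organs, with 423, 232, 405 and 336 in flower and 270.5, 916 and 735 in leaf, and did not pass (adjusted p = 0.146).

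Assembly and cyclic electron flow were listed with the annotation in view. Of 27 tested genes of the NDH complex and photosystem assembly 17 were lower and 10 not called, with a median of -1.30. The NDH subunit NdhL had 148, 154, 137 and 97.0 in flower and 501, 612 and 596 in leaf (-2.13 ± 0.18, adjusted p = 4.6e-06). NdhN had 113, 97.8, 102 and 95.4 against 319, 454 and 404 (-1.92 ± 0.17, adjusted p = 5.6e-06). TROL, which anchors ferredoxin-NADP reductase to the thylakoid, was lower (-1.80 ± 0.28), as was ATAB2, needed for translation of photosystem proteins (-1.68 ± 0.18). Members that did not pass included NdhS (-0.75 ± 0.28), PGRL1B of cyclic electron flow (-0.21 ± 0.18) and the organelle RNA factor CRR28 (0.18 ± 0.34).

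In the Calvin-Benson cycle all 3 tested genes were lower. PRK, phosphoribulokinase, had 1202, 1342, 1403 and 1236 in flower and 4200.1, 4465 and 4655 in leaf (-1.78 ± 0.16, adjusted p = 7.6e-06), and SBPASE, sedoheptulose bisphosphatase, differed by -1.56 ± 0.20. Of 9 chlorophyll and carotenoid genes 7 were lower and 2 not called. PORB, the light-dependent protochlorophyllide reductase, had 989, 774, 587 and 799 in flower against 4932, 1766 and 1877 in leaf (-1.84 ± 0.22, adjusted p = 5.2e-05). Leaf GC 1 lay well above the other leaf arrays for PORB, and the lowest leaf array still exceeded all flower arrays. CHLM, the magnesium protoporphyrin methyltransferase, was lower (-1.32 ± 0.14). HEMB1, of the early tetrapyrrole pathway (-0.36 ± 0.14), and HEMA2, a glutamyl-tRNA reductase (0.08 ± 0.21), did not pass.

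**Figure D4:**
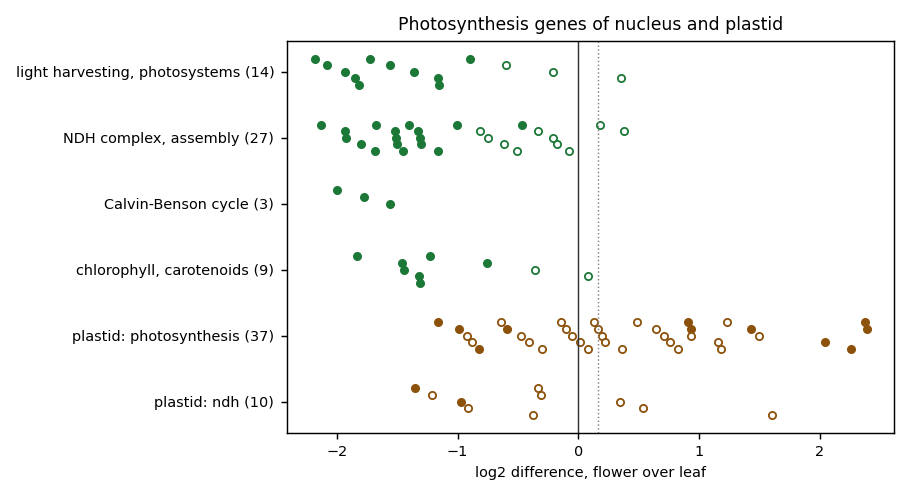
Log2 difference of flower over leaf (x axis) for members of 6 gene groups, 1 point per tested gene, filled where it passed the test; the vertical lines mark 0 and the median of all probe sets, 0.16. Points of the 4 nuclear groups lie mostly left of both lines, while those of the 2 plastid-encoded groups lie on both sides.

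Genes encoded in the plastid genome were called in shares near those of all probe sets, 21.3% higher and 14.4% lower. Of 37 plastid photosynthesis genes 7 were higher, 4 lower and 26 not called, with a median of 0.22. For psbA, the D1 protein of photosystem II, signals were 581, 291, 207 and 810.2 in flower and 64.8, 58.2 and 134 in leaf (2.37 ± 0.44, adjusted p = 0.00137). For atpH, an ATP synthase subunit, they were 1157, 659, 445 and 1038 against 84.7, 159.8 and 233 (2.39 ± 0.46, adjusted p = 0.00177). The flower arrays of both were uneven, with flower GH 1 the lowest. Another subunit of the same enzyme, atpB, was lower, with 5372, 4287, 4098 and 5071 in flower and 9099.5, 9502 and 12494 in leaf (-1.16 ± 0.30, adjusted p = 0.0101). The 10 plastid ndh genes included 2 lower, ndhC (-1.36 ± 0.18) and ndhI (-0.97 ± 0.21), and 8 not called. Plastid ribosome and polymerase genes gave 5 higher, 3 lower and 14 not called of 22. Counts moved with the setting: quantile normalization left 0 of the photosynthesis and 0 of the ribosome and polymerase genes lower, and with the ratio covariate 14 and 8 were higher. The calls of atpB and ndhI were lost after quantile normalization, at -0.39 and -0.30.

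Mitochondrial genes were tested for 12 of 15 on named probe sets, and 7 were higher and 5 not called, with nad4 at 1.40 ± 0.30 and cox1 at 0.98 ± 0.24. Organelle transcripts mostly lack the long poly(A) tails of nuclear ones. The 5S ribosomal RNA signal and the 3' to 5' ratio given above moved with the same groups. With the ratio as a covariate 5 mitochondrial genes were higher and the call of cox1 ended (0.73), and after quantile normalization 4 were higher. The part of the 5S ribosomal RNA signal was not tested.

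In the glucosinolate pathway 3 of 6 tested genes were lower in flower and 3 not called. BCAT4, an aminotransferase of methionine chain elongation, had 36.4, 60.3, 104 and 65.4 in flower and 1011, 1078 and 1151 in leaf (adjusted p = 1.7e-06). GSTU20, a glutathione transferase, had 533, 687, 1392 and 927 in flower and 3126, 2928 and 3365 in leaf (-1.79 ± 0.28, adjusted p = 3.7e-04). UGT74B1, which glucosylates thiohydroximates, had 67.0, 55.3, 95.7 and 104 against 226, 252 and 306 (-1.66 ± 0.25, adjusted p = 3.1e-04). The leaf arrays of all 3 were above all flower arrays. The transporters GTR1 (0.13 ± 0.31) and GTR2 (0.62 ± 0.27) did not pass. Of 11 tested cytochromes P450, nearly all of the CYP71B subfamily, 5 were lower, CYP71B29 at least 1.53-fold and CYP71B23 at least 1.62-fold. CYP71B31 was the 1 higher member, with 134, 133, 506 and 315 in flower and 0.670, 0.440 and 0.700 in leaf, at least 8.21-fold (adjusted p = 9.2e-06).

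The lists of this paragraph are small, and over all probe sets 21.3% were higher and 14.4% lower. Of 5 tested genes of flowering time and phase change 1 was higher, 2 lower and 2 not called. SNZ (SCHNARCHZAPFEN), an AP2-type repressor of flowering, had 5.56, 6.99, 1.48 and 3.33 in flower and 41.5, 67.8 and 90.3 in leaf, at least 2.25-fold lower (adjusted p = 0.00293). Of 4 TCP, SPL, YABBY and growth-regulating factors 1 was higher, INO, given above, 1 lower and 2 not called. YAB5, a YABBY factor of the lower leaf side, had 34.9, 16.1, 23.9 and 7.30 against 96.6, 103 and 97.7 (-2.61 ± 0.53, adjusted p = 0.00231). All its flower arrays but GC 1 were dim. The related YAB3 did not pass (-0.73 ± 0.75), although its flower arrays, at 68.6, 80.3, 55.8 and 99.0, lay below its leaf arrays, at 116, 129 and 122. Of 4 tested genes of trichome and epidermal patterning 1 was higher, SIM, given above, 1 lower and 2 not called, namely TRY (0.42 ± 0.37) and AN (0.73 ± 0.35). GIS, a zinc finger regulator of trichome initiation, was dim in flower and at least 2.29-fold lower there. Of 5 tested auxin genes 1 was higher, 1 lower and 3 not called, near the shares of all probe sets. GH3.17, an enzyme that joins auxin to amino acids, had 56.4, 80.6, 69.7 and 72.1 in flower and 11.7, 13.0 and 14.5 in leaf, at least 2.46-fold higher (adjusted p = 0.00866). The auxin-responsive IAA29 had 3.01, 14.3, 17.9 and 33.1 in flower against 195, 40.9 and 64.8 in leaf (-2.67 ± 0.87, adjusted p = 0.0326). Its leaf GC 1 array was the highest, and its call ended with the ratio covariate (-2.21). Of 6 tested genes of the root list 2 were higher, 2 lower and 2 not called. PYK10, a beta-glucosidase of endoplasmic reticulum bodies known from roots and seedlings, had 16.7, 9.06, 10.2 and 36.4 in flower and 328, 93.2 and 177 in leaf (-3.71 ± 0.76, adjusted p = 0.00247). Flower GC 1, GC 2 and GH 1 were dim for PYK10 and IAA29, so both sizes rest in part on dim signals. The glutamate receptor-like channel GLR2.7 was dim in flower and at least 2.63-fold lower.

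The genes with the largest differences were taken by a fixed rule, with ranks among called probe sets of 1 gene whose groups do not overlap. Only some of them are printed here, and several of higher rank are left out. Of genes with mean signals above the limit in both organs, AT5G22430 ranked first among the higher ones, with 1541, 1589, 1222 and 1595 in flower and 5.25, 64.4 and 20.4 in leaf (6.39 ± 0.56, adjusted p = 5.9e-06). Only leaf GH 1 was above the limit among its leaf arrays. The basic leucine zipper factor bZIP44 had 468, 342, 488 and 418 against 30.3, 47.1 and 37.3 (3.54 ± 0.16, adjusted p = 8.1e-08). Ranks 5 to 16 also held AT1G20120 (3.54), AT3G61160 (3.42), AT5G33370 (3.31) and AT5G20740 (3.44), for which the annotation gives no symbol. Of genes dim on every leaf array, GILT, a relative of a lysosomal thiol reductase, was at rank 5 by flower signal. It had 1264, 1220.1, 1288 and 574 in flower and 2.99, 8.04 and 1.84 in leaf, at least 36.8-fold higher (adjusted p = 5.3e-06), and its flower GH 2 array was the lowest of the 4. AT5G45880 was at least 36.0-fold higher.

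Among the falls with mean signals above the limit in both organs, ECS1, at rank 11, had 724, 932, 724 and 610.0 in flower and 7853, 7874 and 8865 in leaf (-3.49 ± 0.16, adjusted p = 8.1e-08). It stayed bright in flower. ZW9, at rank 15, had 18.7, 41.4, 22.6 and 39.9 against 619, 116 and 156 (-3.04 ± 0.47, adjusted p = 4.1e-04), with leaf GC 1 several times the other leaf arrays. Flower GC 1 and GH 1 were dim for ZW9, so the size of its difference rests in part on dim signals. AT3G22240 had 457, 356, 366 and 369.5 in flower and 7355, 6023 and 5577 in leaf (-4.09 ± 0.32, adjusted p = 3.2e-06). Of genes dim on every flower array, MSRB6, a methionine sulfoxide reductase at rank 7 by leaf signal, had 4.31, 7.76, 10.1 and 2.76 in flower and 426, 124 and 187 in leaf, at least 7.64-fold lower (adjusted p = 2.6e-05). AT1G76960 was at least 9.47-fold lower and AT3G16530 at least 7.12-fold.

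Several flower-high genes lie near each other in the genome. Among 8310 measured genes put in the order of the RefSeq annotation, 508 (6.11%) were called higher in flower and dim on every leaf array. On chromosome 1, 8 measured genes in a row were of this kind, from AT1G23520 to AT1G23670, within a stretch of 15 protein-coding loci. On chromosome 3 there were 5 in a row, from AT3G28780 to AT3G28850, within 8 loci, where AT3G28830 was at least 26.7-fold and AT3G28790 at least 21.3-fold higher. A run of 3 lay on chromosome 2, from AT2G19000 to AT2G19070. Among the 78 genes (0.939%) lower in flower and dim on every flower array there was no run of 3 or more. The 508 and 78 genes were counted under the unequal conditions given above for dim probe sets, so their numbers and runs are not compared. The runs were looked for after the loci had been seen among the named genes, and whether neighbours share sequence on the probes was not tested. How many runs of each length chance alone would give was not tested either.

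A smaller set was measured tightly enough to bound its difference. The 95% interval lay within 0.5 of 0 on the log2 scale for 850 probe sets, 464 of them naming 1 gene. SAMDC, S-adenosylmethionine decarboxylase of polyamine synthesis, had 3089.9, 3251, 2976 and 3045 in flower and 3078, 3639 and 3497 in leaf (-0.14 ± 0.12). After quantile normalization its difference was 0.45 and was called. AT1G78040, the brightest of this kind, had 4333 ± 841 (SD, n = 4) in flower and 4288 ± 182 (SD, n = 3) in leaf. The arrays of both genes overlapped with the signals as deposited, but after quantile normalization AT1G78040 was also called, at 0.75, so these bounds hold for the deposited scale only. Of 11 tested subunits of nuclear RNA polymerases limma called 0, and 1 had an unadjusted p under 0.05, with differences from -0.33 for NRPB7 to 0.90 for NRPB9B. Of 12 ubiquitin-specific proteases 1 was called, UBP15 (0.76 ± 0.17).

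**Figure D5:**
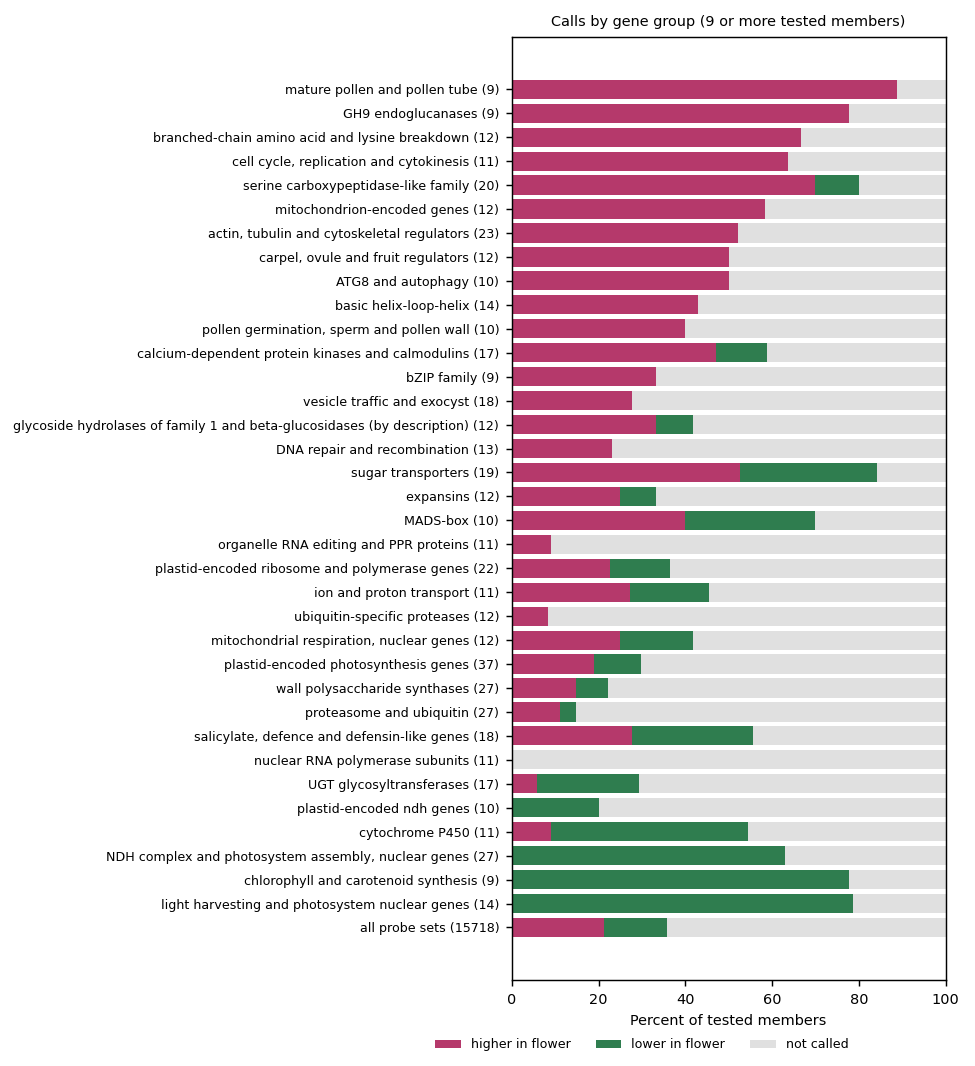
Percent of tested genes higher in flower, lower in flower and not called at an adjusted p of 0.05, 1 bar for each of the 35 gene groups with 9 or more tested genes, their number in the label, ordered by the share higher minus the share lower. The lowest bar shows all 15718 probe sets, of which 21.3% were higher and 14.4% lower.

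Whether the difference between flower and leaf depends on the GC or GH code was asked with 1 mean per tissue and code, and genes are named in the order of the adjusted p. Of 15718 probe sets 16 (0.102%) were called, 2 higher and 14 lower in GH, while 1261 had an unadjusted p under 0.05. The GC side of this test rests on 1 leaf array. AT5G48570, which encodes the peptidyl-prolyl isomerase ROF2 (FKBP65), had 963, 705, 98.8 and 48.9 in flower and 40.6, 298 and 199.7 in leaf. Its log2 difference was 4.34 among GC arrays and -1.81 among GH arrays (GH minus GC -6.15 ± 0.58, adjusted p = 0.0201). Both flower GC arrays were high and both GH arrays low, and the stem signals were 1117, 661, 110.3 and 114 in the same order. Fes1A, a partner of Hsp70 chosen after its values were seen, had 718, 343, 61.8 and 70.7 in flower and 72.7, 217 and 146 in leaf, with GC above GH in flower and below it in leaf (GH minus GC -4.20 ± 0.52, adjusted p = 0.0277).

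IRX15-L, a relative of the xylan gene IRX15, had 49.6, 39.2, 29.1 and 15.3 in flower and 2.33, 29.2 and 25.1 in leaf (GH minus GC -4.60 ± 0.52, adjusted p = 0.0201). Here leaf GC 1 was far below the other leaf arrays, and the flower GC arrays were above the flower GH arrays. The size rests on that dim signal, and with signals floored at the dim limit it was -0.65 and not called. AT1G70000 had the next lowest adjusted p among the lower ones (-4.59 ± 0.54, adjusted p = 0.0214), and AT5G22400 was the only higher one that names 1 gene (5.16 ± 0.73, adjusted p = 0.0485). Their sizes too rest on dim leaf signals, 4.05 on leaf GC 1 for AT1G70000 and 2.43 and 1.81 on the GH arrays for AT5G22400, and with the floor they were -1.80 and 1.12 and not called. Larger differences at higher adjusted p among probe sets of 1 gene were those of AT1G54050 (-6.15), ndhH (-5.12) and AT5G48290 (-4.83). The sizes for ndhH and AT5G48290 also rest on dim signals, 1.60 and 4.09 on leaf GC 1. AT5G48290 was dim on flower GH 1 and GH 2 as well, at 5.92 and 9.67. Floored values of these genes were not examined. limma called 0 probe sets without leaf GH 1 (955 at an unadjusted p under 0.05), without leaf GH 2 (966) or without flower GC 1 (979), and 1 without flower GH 2.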

How the data were processed

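The deposited values are 1 intensity per probe set and array, made by the authors with MAS5, per the submitters' processing notes; the settings are not given in the sources used. They were used as deposited, as log2 of the signal. Control probe sets were left out, and a probe set was kept where 3 or more of the 11 arrays lay above 28.1, the 40th percentile. limma 3.58.1 in R 4.3.3 fitted tissue and the title code over all 11 arrays with a mean-variance trend, and p-values were adjusted by Benjamini and Hochberg over 15718 probe sets. The contrast is flower minus leaf. The fit was tested on simulated data. A second fit with 1 mean per tissue and code gave the difference between codes.

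Gene names come from the platform annotation and RefSeq (TAIR10.1). A gene counts once in a list, by its brightest probe set. Members and lists were chosen with earlier results of these data known, and some lists after the annotation had been read. Named were the 16 largest differences in each direction, the 16 brightest genes dim in the other organ, the 8 brightest of small interval, and up to 6 called members of a list with members against its majority or not called. Some genes the text names fall outside this rule and were chosen after their values were seen. Alternatives changed the scaling, filter, pseudocount, floor, prior, covariates and arrays. No sequences are shown.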

Additional observations from a re-analysis of the deposited data

Results flagged for a closer look

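Among the 4 flower arrays, 1 array lay apart from the other 3 for 8 of 178 genes examined, by Dixon's ratio of gap to range against its 95% critical value, and chance alone would do this for about 1 group in 20. For GILT flower GH 2 had 574, against 1220.1 to 1288 on the other flower arrays. The same array was apart for the checkpoint gene BUB3.2, at 5.37 against 26.4 to 34.1, for RALFL34, at 644 against 734 to 749.7, and for cox1, at 209.7 against at most 135. Flower GH 1 was apart for INO, at 51.0 against 64.1 to 65.3, and for AT5G22430, at 1222 against 1541 to 1595. Flower GC 1 was apart for AT3G22240, at 457 against 356 to 369.5, and flower GC 2 for LCR69, at 2709 against 2092 to 2183.

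The test of whether the difference between flower and leaf depends on the title code passed its threshold for 8 probe sets naming 1 gene, all named above. The values of 5 of them are repeated here. On the log2 scale, GH minus GC was -6.15 for AT5G48570, -4.60 for IRX15-L, -4.59 for AT1G70000, -4.20 for Fes1A and 5.16 for AT5G22400. Each rests on 1 leaf GC array, and no probe set was called without leaf GH 1, leaf GH 2 or flower GC 1. With signals floored at the dim limit the values of AT5G48570 and Fes1A were the same, and those of IRX15-L (-0.65), AT1G70000 (-1.80) and AT5G22400 (1.12) were no longer called. Growth conditions named in the descriptions moved with the code in leaf and partly with the tissue, and their part was not tested.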

How the results depend on the processing

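Over the scalings, filters, covariates and array sets tried, the number of probe sets called between flower and leaf stayed within 1.5 times 5617 except among GC arrays, with 2612 (1477 higher, 1135 lower), and for the higher ones among GH arrays, with 2120. Leaving out 1 array at a time gave 4407 to 5069. With the 3' to 5' ratio as a covariate 5279 were called. Without stem GH 1, the stem array of the highest ratio, 6288 were called. Of the 130 called genes printed, 112 stayed called in every fit that left out 1 array, and 0 changed direction. In the other fits 82 stayed called wherever they had a value, as the stricter filter dropped some of the genes examined. SAMDC, not called as deposited, was called at 0.45 after quantile normalization, and GRXC2 likewise at -0.46 with the ratio covariate. Quantile normalization ended the calls of AGL18, AGL61, ANX2, AUR2, CHX19, SWEET17, TY1, XTH32, atpB and ndhI. The ratio covariate ended those of AGL24, AGL66, ANX2, AUR2, CHX19, HTB11, IAA29, LCR69, SWEET16, SWEET17, TY1, XTH32 and cox1, centring on the 75th percentile those of HTB11 and TY1, and a floor at the dim limit those of AMS and CHX15. With flower and leaf arrays only, AGL80, YAB3, NdhS, AUR3, GTR2, HEMB1, AN and NRPB9B were called and SWEET16 and TY1 were not.

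The number called for the difference between codes, 16, was 10 after quantile normalization, 9 without the trend, 27 with flower and leaf arrays only and 25 without the stem array of the highest 3' to 5' ratio. Leaving out 1 array gave 0 to 18, and the fit without leaf GC 1 could not be made, since no leaf GC array is left. Replicate numbers were checked as a block: deviations of same-numbered arrays correlated at 0.0185, 0.0669 and 0.0117 among flower GC, flower GH and leaf GH. Stem arrays were left out of this check. Whether same-numbered arrays shared a harvest or batch was not tested. With the replicate block 5491 probe sets were called between the organs and 35 for the codes. Signals under 28.1 limit what can be said of dim genes, since their order there is unsettled.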

Other observations

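Thiol redox genes were looked at after their values were seen, as a description. Of 16 tested thioredoxins, glutaredoxins, thioredoxin reductases and methionine sulfoxide reductases, picked by symbol, 9 were lower in flower, 1 higher and 6 not called. Of all probe sets 14.4% were lower and 21.3% higher. TRXF2, which activates Calvin-Benson enzymes in the light, had 121, 104, 127 and 72.8 in flower and 450.3, 382 and 401 in leaf (-2.03 ± 0.20, adjusted p = 1.4e-05). THX, thioredoxin x, had 208, 218, 153 and 168 against 813, 1029 and 967 (-2.36 ± 0.16, adjusted p = 1.3e-06). Leaf arrays were above all flower arrays for both.

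The gene ty2 had 211, 196, 276 and 181 in flower and 864, 507 and 619 in leaf (-1.60 ± 0.21, adjusted p = 1.3e-04). Its relative TY1 had 53.7, 48.8, 54.7 and 60.1 against 45.6, 29.7 and 24.3 (0.72 ± 0.25, adjusted p = 0.0414). The call of TY1 ended after quantile normalization (0.39), after centring on the 75th percentile (0.59), with the ratio covariate (0.68) and with flower and leaf arrays only (0.72). Neither pair of groups overlapped. The o-type thioredoxins TO1 (0.08 ± 0.16) and TO2 (-0.07 ± 0.18) and the glutaredoxins GRXC1 (-0.16 ± 0.28) and GRXC2 (0.04 ± 0.25) did not pass.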
